A study of Mus musculus with 66 samples.

Results

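A set of 9 marker genes of the oligodendrocyte lineage, the cells that make myelin in the brain, was followed through cultured mouse neurons in which 9 chromatin and transcription regulators had been depleted. The genes were Olig1, Olig2, Sox10, Nkx2-2, Pdgfra, Cspg4, Cnp, Mbp and Mag, chosen by symbol, and all 9 were found among the 30084 symbols of the count table. Of these, 6 had enough counts to be tested, among 16145 genes that passed the filter on low counts, and the other 3 (Sox10, Nkx2-2 and Mag) did not.

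The cultures came from wildtype e16.5 embryos, separated into males and females. They were infected with lentivirus whose short hairpin RNA (shRNA) leads to the decay of a matching mRNA, here that of Chd8, Ash1l, Kmt2c, Kdm6b, Setd5, Dnmt3a, Mbd5, Med13l or Tbr1, with lentivirus carrying a nontargeting shRNA, or with no virus. The labels' protocols state doses meant to leave about 50% of each target, removal of the virus on day 6 in culture and lysis on day 10. Each of these 11 conditions had 3 libraries per sex, numbered 1 to 3, which gave 66 libraries of polyadenylated RNA in 22 groups. The labels do not say whether the 3 libraries of a group came from separate cultures or embryos, so the p-values measure the spread between these libraries, which may be technical.

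Oligodendrocytes arise from precursor cells that divide, migrate and then wrap axons. OLIG2 and OLIG1 are basic helix-loop-helix transcription factors that specify and mature the lineage, SOX10 and NKX2-2 act with them to switch on myelin genes, and precursors carry the growth factor receptor PDGFRA and the proteoglycan NG2, the product of Cspg4. CNP, MBP and MAG belong to myelin: an enzyme that keeps cytoplasmic channels open within the sheath, the protein that compacts the membrane, and an adhesion molecule facing the axon. None of these genes marks the lineage alone in every setting. Olig2 is also found in neural progenitors and some astrocytes, Cspg4 in pericytes, Pdgfra in fibroblasts of the brain's coverings, and the Mbp locus also makes golli transcripts in neurons.

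The promoters of 3 genes are shown because the results below turn most on Cnp and Pdgfra, and because Olig2 encodes a factor that binds E-boxes. Each is RefSeq sequence of build GRCm38.p6, written 5′ to 3′ on the gene's strand. It runs from 250 bases before to 50 bases after the start used for that promoter. For these 3 genes that start is not the GENCODE gene start given below. E-boxes (CANNTG, the core of the sites bound by basic helix-loop-helix factors, the same on both strands) are in capitals. The Olig2 promoter (chr16:91225300-91225599, plus strand) held no E-box. The Pdgfra promoter (chr5:75152001-75152300, plus strand) held 2, CATCTG and CAAATG. The Cnp promoter (chr11:100574689-100574988, plus strand) held 1, CAGGTG.
Olig2: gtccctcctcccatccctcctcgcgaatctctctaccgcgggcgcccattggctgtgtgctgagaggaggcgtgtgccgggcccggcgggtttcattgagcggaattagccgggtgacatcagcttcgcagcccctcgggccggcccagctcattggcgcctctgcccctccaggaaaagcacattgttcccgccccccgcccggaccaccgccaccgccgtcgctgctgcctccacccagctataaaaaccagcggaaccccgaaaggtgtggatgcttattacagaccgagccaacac
Pdgfra: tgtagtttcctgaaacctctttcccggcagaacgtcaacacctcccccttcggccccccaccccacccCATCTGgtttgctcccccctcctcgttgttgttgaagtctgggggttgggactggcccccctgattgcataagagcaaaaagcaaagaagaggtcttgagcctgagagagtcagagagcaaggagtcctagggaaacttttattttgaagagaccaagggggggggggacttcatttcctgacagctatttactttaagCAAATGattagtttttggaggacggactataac
Cnp: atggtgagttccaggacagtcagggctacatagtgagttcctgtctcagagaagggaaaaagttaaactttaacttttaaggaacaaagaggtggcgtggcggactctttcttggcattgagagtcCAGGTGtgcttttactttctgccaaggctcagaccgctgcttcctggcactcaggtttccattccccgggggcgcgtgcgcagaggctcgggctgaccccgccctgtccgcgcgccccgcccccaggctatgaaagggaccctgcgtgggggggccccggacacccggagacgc
CANNTG was found in 72.3% of all 32851 promoters of this length in the table, with a median of 1, so its presence sets neither gene apart. TATAAA, searched on both strands, was found in the Olig2 promoter and in 13.6% of all promoters. Promoters were listed for 6 of the 9 genes; those of Olig1, Sox10 and Mbp were not used here.

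In mm10, GENCODE places Olig2 (chr16:91225457-91228677) and Olig1 (chr16:91269772-91271933) on the plus strand of the same chromosome, 41094 bases apart. Pdgfra (chr5:75152292-75198215), Cspg4 (chr9:56865033-56899870) and Cnp (chr11:100574904-100591729) also lie on the plus strand, while Sox10 (chr15:79154908-79165240), Nkx2-2 (chr2:147177546-147194243) and Mag (chr7:30899176-30914873) lie on the minus strand. Mbp lies on chromosome 18. The 3′ side of Cnp overlaps Dnajc7, which encodes a chaperone cofactor and is read from the opposite strand. The libraries were made with a stranded kit, but the strand setting of the counting is not given in the sources used here, so reads of the 2 genes may not be fully separated and Dnajc7 is given beside Cnp.

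Total counts ranged from 13634872 to 66074822 per library. Levels are given as counts-per-million (CPM). The targeted gene had the lower level in 18 of 18 comparisons with nontargeting shRNA, at 22.3% to 54.4% of the control level, and 15 of the 18 passed the test. The libraries labelled Setd5 male 1 and Kdm6b male 1 went against their labels on the targeted gene, and Setd5 female 1 stood apart on sex-linked genes. The main values under Setd5 and Kdm6b shRNA are also given without them. All comparisons of a sex share the same 3 nontargeting libraries, so effects of different shRNAs on 1 gene are not independent of each other. In bulk RNA, fewer cells of a type and less RNA per cell cannot be told apart.

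The 9 genes were present at low levels, and those that define the lineage most strictly were at or near 0. Over all 66 libraries, Mbp averaged 23.3 ± 5.34 CPM (SD, n = 66) and Cnp 18.2 ± 5.66 CPM. Olig1 averaged 6.26 ± 2.55 CPM, Olig2 1.81 ± 0.855, Cspg4 1.43 ± 0.600 and Pdgfra 0.798 ± 0.408. Levels of different genes can be compared per kilobase of exon. On that scale Cnp led at 5.01 CPM per kilobase, ahead of Olig1 at 2.90 and Mbp at 2.75, followed by Olig2 at 0.715, Cspg4 at 0.120 and Pdgfra at 0.0796. Mag, Sox10 and Nkx2-2 came last, at 0.0149, 0.00911 and 0.00630 CPM per kilobase.

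Sox10, a factor that oligodendrocytes keep from precursor to myelin, gave 55 counts in all 66 libraries together, and 52 libraries had none. Its highest count was 10. Counts above 0 were gathered in 1 set of libraries, chosen for description after the values were seen: 8 of the 11 male libraries with number 1 had any, with 38 of the 55 counts between them, against 1 of 11 male libraries with number 2 and 2 of 11 with number 3. Among females 2, 1 and 0 of 11 libraries with numbers 1, 2 and 3 had any. A count of 0 allows up to 3 counts, which is 0.0454 to 0.220 CPM depending on the library and covers counting error only.

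Nkx2-2 gave 36 counts in all, with 51 libraries at 0 and no library above 6. Its antisense neighbour Nkx2-2os gave 4 counts. Mag, the axon-facing adhesion molecule, was a little more frequent, with 135 counts, 29 libraries at 0 and a highest count of 12. Mag was above 0 in 20 of 33 male and 17 of 33 female libraries, with 85 and 50 counts. These 3 genes did not enter the tests reported here.

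**Figure D1:**
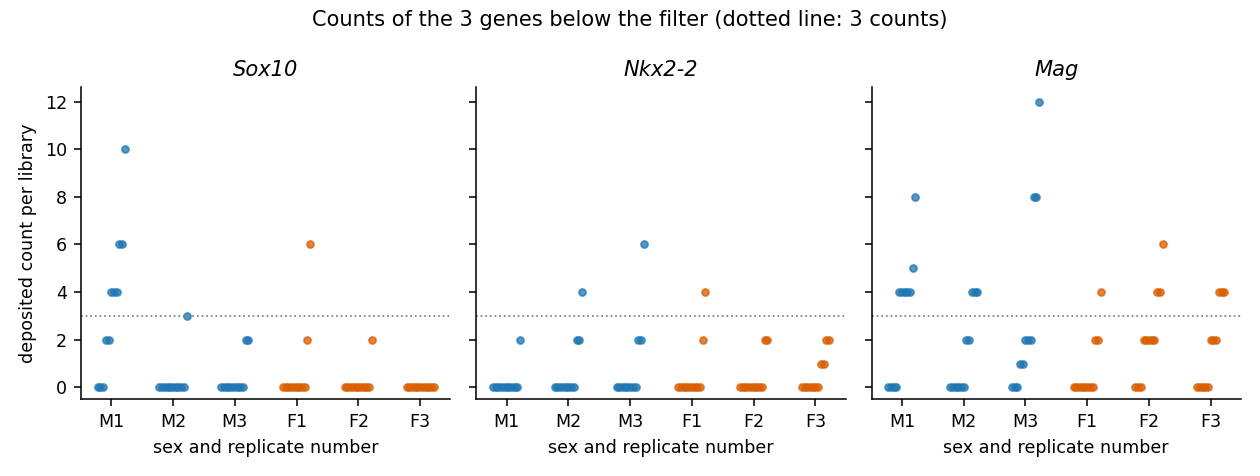
Raw counts of Sox10, Nkx2-2 and Mag in each of the 66 libraries (vertical axis, counts), grouped by sex (M, F) and replicate number; the dotted line marks 3 counts. No library is above 12, and 8 of the 11 male libraries with number 1 have Sox10 counts.

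The other genes of the lineage, taken from 3 lists chosen with earlier results of these data known, were split in the same way. Of 18 further precursor genes 11 passed the filter on low counts, led by Ptprz1 at 213 CPM, Vcan at 123 and Sox5 at 69.9, a receptor phosphatase, a matrix proteoglycan and a transcription factor. The 7 that did not pass were Gpr17, Neu4, Enpp6, Nkx6-2, Zfp488, Bmp4 and Gpr37l1. Of 21 further myelin and mature oligodendrocyte genes 13 passed, led by Omg at 123 CPM, Sirt2 at 62.7 and Tspan2 at 37.4, and the 8 that did not were Mobp, Mal, Cldn11, Opalin, Aspa, Fa2h, Gjb1 and Nkx6-1. Mog, which encodes a classic myelin membrane protein and is named here after its value was seen, did pass, at 7.33 CPM. All 24 ligands, receptors and regulators of the lineage passed, led by Erbb4 at 230 CPM, Lingo1 at 158 and Prmt5 at 119. In the same libraries, 8 neuron markers summed to between 4979 and 5605 CPM on average in the 6 sets of libraries defined by sex and replicate number.

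The study asks what the depletion of each regulator changes in neurons of either sex, and the first comparison set each shRNA against nontargeting shRNA in the same sex. Over 9 shRNAs and 2 sexes, 1 of 108 tests of the 6 genes passed an adjusted p of 0.05 (edgeR quasi-likelihood test, Benjamini-Hochberg over all 16145 genes). Over all genes 2.48% of tests passed, from 0% to 10.2% per comparison, so the share of calls among these genes was not above that. With replicate number as a block, which pairs the libraries of 8 of 9 female and 6 of 9 male comparisons, 6 of the 108 passed, against 7.40% of tests over all genes. Without the block, 6 of the 108 tests had an unadjusted p under 0.05. When the effects in males and females were averaged, 2 of 54 tests passed, against 6.99% of tests over all genes (8 with the block, against 15.5%). A test for any difference among the 9 shRNA conditions and the nontargeting libraries passed for 3 of the 6 genes, Cnp (adjusted p = 0.000185, edgeR), Pdgfra (0.000629) and Olig1 (0.0203), against 56.3% of all genes. With the block 6 of 6 passed, against 79.4%. Without it Mbp, Olig2 and Cspg4 did not pass it (adjusted p = 0.0789, 0.108 and 0.393, edgeR).

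**Figure D2:**
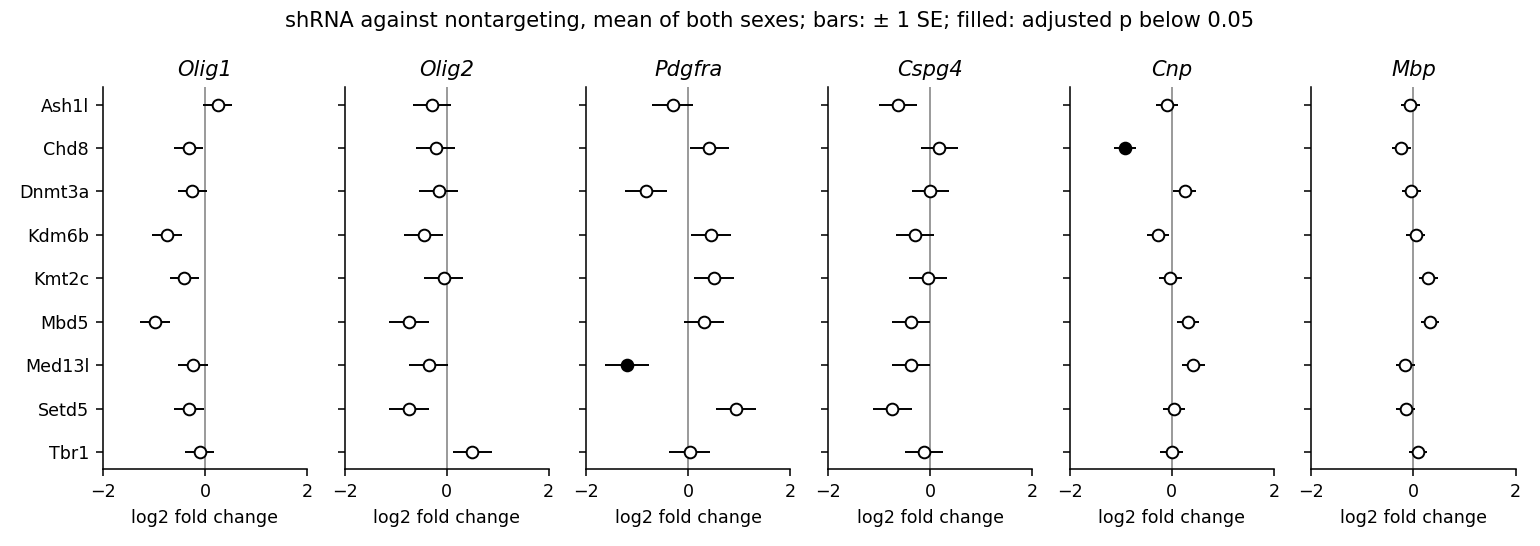
Effect of each of the 9 shRNAs on the 6 testable genes, mean of both sexes (horizontal axes, log2 fold change against nontargeting libraries; bars, 1 SE to either side; filled points, adjusted p under 0.05). The filled points are Cnp under Chd8 shRNA, at −0.91, and Pdgfra under Med13l shRNA, at −1.20.

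The pair of lineage factors showed values below 0 under most shRNAs, with no call in any single comparison of all libraries unless a block was used. Olig1 had a negative value in 8 of 9 comparisons averaged over sex and Olig2 in 8 of 9, with medians of −0.32 and −0.28, beside all-gene medians between −0.01 and 0.01. These counts share the nontargeting libraries, in which Olig1 was high in all 6: 7.35, 7.23 and 7.84 CPM in males and 7.71, 6.48 and 8.12 in females. Libraries without virus stood at 7.18, 6.74 and 7.62 CPM in males and 5.35, 5.91 and 7.30 in females.

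Mbd5 shRNA, against a methyl-CpG-binding domain protein, gave the lowest Olig1 level of the 11 conditions, 3.94 CPM. Its libraries stood at 4.12, 4.38 and 6.44 CPM in males and 3.4, 2.44 and 2.87 in females, all below every nontargeting library. The effect was −0.97 in the mean of both sexes (SE 0.294, adjusted p = 0.141, edgeR, beside 0.663% of all genes) and did not pass. With the block, for which both sexes are paired, it was −1.01 and passed (adjusted p = 0.00151, beside 3.32% of all genes), as did the female value of −1.37 (adjusted p = 0.0151, beside 0.458%). Kdm6b shRNA, against a histone demethylase, came next, with Olig1 at 3.30, 3.16 and 5.78 CPM in males and 6.55, 4.51 and 3.46 in females. The Kdm6b value of −0.75 did not pass (adjusted p = 0.253, edgeR), and was −0.68 without the 2 male libraries that go against their labels.

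Ash1l shRNA gave the highest mean Olig1, 8.90 CPM: Ash1l male 3 had 17.6 CPM, the highest of all libraries, while the other 5 lay between 5.36 and 8.66. Without Ash1l male 3 the test for any difference among conditions no longer passed for Olig1 (adjusted p = 0.0596, edgeR), while it was kept in the other 59 of 60 fits that each left out 1 library. For Cnp and Pdgfra it was kept in 60 of 60. Chd8 male 3 was the next highest library, at 14.1 CPM. The Chd8 value was −0.32 and did not pass, in a comparison that called 22.3% of all genes. It passed in 1 of 12 fits that each left out 1 library, at −0.77 without Chd8 male 3 (adjusted p = 0.0490, edgeR). Across the 12 fits values reached −0.16, and adjusted p reached 0.775.

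Olig2 was lowest under Setd5 shRNA, at 1.19 CPM, and highest under Tbr1 shRNA, at 2.88 CPM. The Setd5 libraries had 0.594, 0.918 and 1.64 CPM in males and 2.45, 0.808 and 0.751 in females, against 1.79, 1.63 and 1.92 in males and 2.60, 1.99 and 2.37 in females under nontargeting shRNA. Setd5 male 3 and Setd5 female 1 lay within the nontargeting range of their sex and the other 4 below it. The value of −0.74 did not pass without the block and was −0.86 with it (adjusted p = 0.0219, edgeR, beside 16.2% of all genes). Without Setd5 female 1 it was −1.16 and did not pass (−1.12 with the block, adjusted p = 0.0122), and without Setd5 male 1 it was −0.60 (−0.79 with the block, adjusted p = 0.0490).

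**Figure D3:**
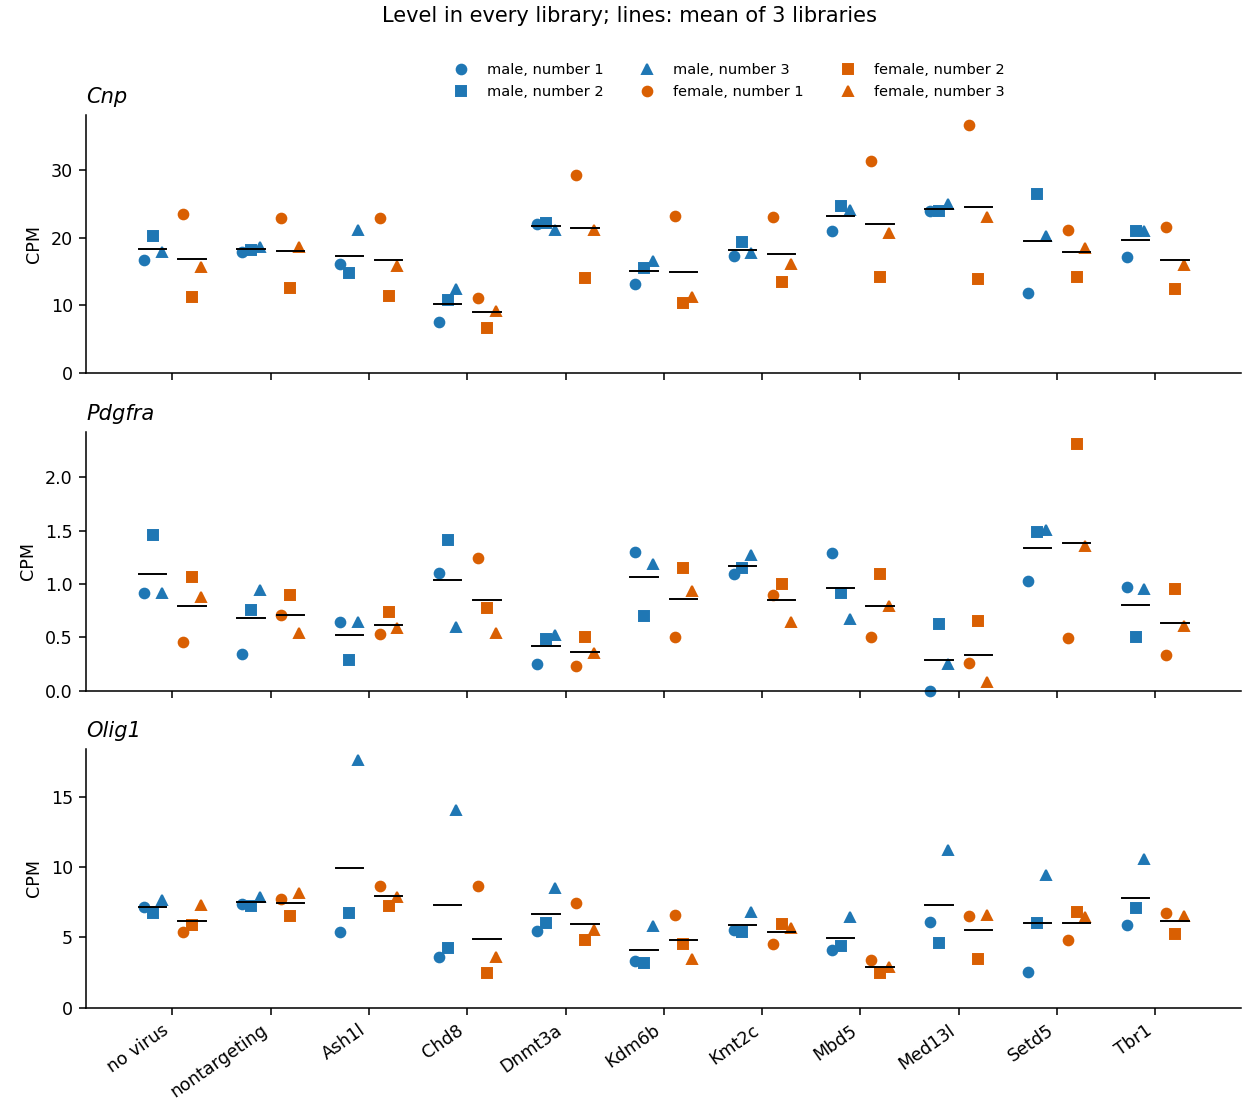
CPM of Cnp, Pdgfra and Olig1 in each library (vertical axes, CPM), by condition, with sex as colour, replicate number as symbol and a line at the mean of 3 libraries. Cnp was lowest under Chd8 shRNA, Pdgfra was lowest under Med13l shRNA, and Olig1 was highest in 2 male libraries with number 3.

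Pdgfra, the receptor through which platelet-derived growth factor drives precursor division, was lowest after depletion of Med13l, a subunit of the kinase module of the Mediator complex, at a mean of 0.310 CPM. The male Med13l libraries held 0, 16 and 8 Pdgfra counts, or 0, 0.620 and 0.250 CPM, against 0.343, 0.755 and 0.945 CPM under nontargeting shRNA. The female ones held 6, 20 and 4 counts, or 0.255, 0.652 and 0.0844 CPM, against 0.708, 0.894 and 0.535 CPM. Library 2 of each sex overlapped the nontargeting range, and the other 4 Med13l libraries lay below it. The mean of both sexes fell by 1.20 on the log2 scale (SE 0.425, adjusted p = 0.0323, edgeR), in a comparison that called 24.1% of all genes (12.3% lower).

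Neither sex passed alone for Pdgfra, with −1.26 in males (SE 0.608, adjusted p = 0.222, edgeR) and −1.15 in females (SE 0.596, adjusted p = 0.225). The single-sex values moved with 1 library in either direction. In males the value was −2.37 without Med13l male 2, which passed (adjusted p = 0.0404, edgeR), and −0.67 without Med13l male 1 (adjusted p = 0.600). In females it was −2.19 without Med13l female 2, which passed (adjusted p = 0.0266, edgeR), and −0.63 without Med13l female 3 (adjusted p = 0.619). Those 2 comparisons called 8.06% and 10.2% of all genes. The call on the mean rested on few counts: it was kept in 5 of 12 fits that each left out 1 library, with values from −1.76 to −0.91, and was lost without nontargeting male 2 or 3, nontargeting female 2, Med13l male 1 or 3, or Med13l female 1 or 3 (adjusted p from 0.0562 to 0.111). Setd5 shRNA gave the highest mean Pdgfra, 1.36 CPM, 4.39-fold above Med13l. Its value of 0.93 against nontargeting did not pass (adjusted p = 0.181, edgeR). It was 1.02 without Setd5 male 1 and 1.16 without Setd5 female 1, and neither passed. With the block it was 0.89 and did not pass. Blocked fits gave 0.95 without Setd5 male 1 (adjusted p = 0.0605, edgeR) and 1.09 without Setd5 female 1, which passed (adjusted p = 0.0408). The background of the Setd5 comparison with all libraries was 5.30% of all genes, and 16.2% with the block.

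Cspg4, which encodes the precursor proteoglycan NG2, had its lowest group mean in females under Setd5 shRNA. These libraries had 0.184, 0.923 and 0.601 CPM against 1.38, 1.92 and 1.81 CPM, without overlap, while the male ones had 1.67, 1.31 and 2.41 CPM against 1.37, 1.12 and 2.22. The female value of −1.67 did not pass without the block (SE 0.584, adjusted p = 0.108, edgeR, beside 3.12% of all genes) and was −1.76 with it (adjusted p = 0.00165, beside 13.0%). The library that stood apart on sex-linked genes, Setd5 female 1, was the lowest of the 3, and without it the value was −1.15 (adjusted p = 0.643), and −1.36 with the block, which did not pass (adjusted p = 0.0662). The difference between the sexes, 1.86 (SE 0.779), did not pass over all genes. The mean of both sexes was −0.74 (−0.47 without Setd5 female 1), and −0.77 with the block, which passed (adjusted p = 0.0289). That call was kept without Setd5 male 1 (−0.82, adjusted p = 0.0271) and lost without Setd5 female 1 (−0.57, adjusted p = 0.181). Without Setd5 female 2 the female value was −2.29 and passed (adjusted p = 0.0329). Under Ash1l shRNA the mean of both sexes was −0.63 and did not pass. It was −0.76 with the block, which passed (adjusted p = 0.0202, edgeR). Without the block it passed in 1 of 12 fits that each left out 1 library, at −1.19 without Ash1l female 2 (adjusted p = 0.0487, edgeR). Across the 12 fits values reached −0.42, and adjusted p reached 0.710. With all libraries and no block, 6.16% of all genes were called.

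Cnp, which encodes the myelin enzyme CNPase, was lower after depletion of Chd8, a chromatin remodeller. In the male libraries Cnp stood at 7.57, 10.8 and 12.4 CPM under Chd8 shRNA and at 17.9, 18.2 and 18.7 CPM under nontargeting shRNA. In the female libraries it stood at 11, 6.70 and 9.26 CPM against 22.9, 12.6 and 18.7 CPM. All Chd8 libraries lay below all nontargeting libraries of their sex, and libraries without virus (16.7, 20.2 and 17.9 CPM in males, 23.5, 11.2 and 15.6 in females) overlapped the nontargeting range. The mean of both sexes fell by 0.91 on the log2 scale (SE 0.221, adjusted p = 0.00148, edgeR), the lowest of all 11 conditions at 9.64 CPM, in a comparison that called 22.3% of all genes (12.5% lower).

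Within each sex the fall in Cnp was of similar size but less certain. The female effect of −1.003 (SE 0.313) passed with an adjusted p of 0.0318 by edgeR, beside 9.33% of all genes. The male effect of −0.83 (SE 0.311) did not, with an adjusted p of 0.0849, beside 9.82% of all genes. The difference between the sexes, 0.18 (SE 0.439), did not pass. The female call was lost without any 1 of the Chd8 female libraries or of the nontargeting female libraries 1 and 3 (adjusted p from 0.0543 to 0.180), and was kept without nontargeting female 2. The call on the mean of both sexes was kept in 12 of 12 such leave-outs, from −1.02 to −0.81. In the fit with replicate number as a block, which the pairing of Chd8 and nontargeting libraries allows in both sexes, the male value was −0.84 and passed (adjusted p = 1.4e-05, edgeR, beside 22.1% of all genes).

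Dnajc7, the gene that overlaps Cnp, averaged 119 ± 15.4 CPM (SD, n = 66). Under Chd8 shRNA it had a value of 0.26 in the other direction (SE 0.0987, adjusted p = 0.0521, edgeR, mean of both sexes). Under Med13l shRNA Dnajc7 rose by 0.29 (adjusted p = 0.0286). How much of either gene's counts came from the shared stretch was not tested.

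At the other end of the order stood Med13l shRNA, with the highest mean Cnp of the 11 conditions at 24.4 CPM, 2.53-fold above that under Chd8 shRNA. The 3 male libraries had 23.9, 23.9 and 25.0 CPM and the female ones 36.6, 13.9 and 23.1 CPM. The male libraries lay above the nontargeting range and the female ones overlapped it. The difference of 0.43 on the log2 scale did not pass in the mean of both sexes; without Med13l female 2 it was 0.57 and did (adjusted p = 0.0434, edgeR), and without Med13l female 1 it was 0.23 (adjusted p = 0.544). In females, whose Med13l and nontargeting libraries are paired by number, the value with the block was 0.39 and passed (adjusted p = 0.0382, edgeR, beside 27.9% of all genes).

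Mbp, which encodes the membrane-compacting protein of myelin, varied least across conditions. Its means ran from 19.5 CPM under Chd8 shRNA to 28.7 CPM under Mbd5 shRNA, a 1.47-fold range, and its 18 effects lay between −0.31 and 0.34 on the log2 scale. For every 1 of the 6 genes, all 10 pairs of neighbouring conditions in the order of mean levels overlapped between libraries. These ranges pool both sexes and all numbers, so their overlap does not show whether conditions separate within a sex. The span from lowest to highest condition was 4.39-fold for Pdgfra, 2.53-fold for Cnp, 2.42-fold for Olig2, 2.26-fold for Olig1 and 1.75-fold for Cspg4, lowest under Ash1l and highest under Chd8 shRNA.

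No call was made for the virus or for sex. Nontargeting against no virus gave 0 of 18 calls, and 0 with an unadjusted p under 0.05 by edgeR, where 0% of all genes were called, and DESeq2 also called none. The value farthest from 0 was that of Pdgfra in males, −0.67 (SE 0.551). Males against females gave 0 of 12 calls, none with an unadjusted p under 0.05 by edgeR and none by DESeq2, beside 0.0434% of all genes in either control condition. The difference of an shRNA's effect between the sexes gave 0 of 54 calls, 1 of them with an unadjusted p under 0.05 by edgeR and none called by DESeq2, beside 0.00206% of tests over all genes.

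Among the other genes of the lineage, the share of tests called was near or below that over all genes, and 21 of the 24 calls were lower. Some genes were called more than once, such as Tspan2 under Chd8, Med13l and Tbr1 shRNA, against the same nontargeting libraries. Over all genes, 22.3% were called under Chd8 shRNA (12.5% lower) and 24.1% under Med13l shRNA (12.3% lower). The lower share over all genes for the 9 shRNAs together is not given here. Over the 9 shRNAs averaged over sex, further precursor genes gave 6 calls (1 higher, 5 lower) in 11 genes, further myelin genes 10 calls (0 higher, 10 lower) in 13, and ligands, receptors and regulators 8 calls (2 higher, 6 lower) in 24. These are 6.06%, 8.55% and 3.70% of the lists' tests, against 6.99% of tests over all genes. Per shRNA, the lists' medians lay between −0.37 and 0.09, between −0.37 and 0.06, and between −0.26 and 0.06, while the all-gene medians lay between −0.01 and 0.01. Nontargeting against no virus called none of these genes.

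Under Chd8 shRNA the 4 strongest calls among the 3 lists were Sox6, Sirt2, Gal3st1 and Erbb4. Sox6, a transcription factor gene of the precursor list, fell by 1.62 on the log2 scale, and the deacetylase gene Sirt2 fell by 0.37. Gal3st1, which encodes the enzyme that makes the myelin lipid sulfatide, fell by 1.42. The neuregulin receptor gene Erbb4 fell by 1.05. Which cells carried these genes was not tested. Yy1 and Tspan2 were also lower, and Vcan and the hedgehog transducer Smo higher, named after their values were seen. The Smo call was kept in 6 of 12 fits that each left out 1 library, and that of Vcan was lost without nontargeting female 1 (0.44, adjusted p = 0.0632, edgeR). In all, 3 of 13 further myelin genes were called, each of them lower, or 23.1%. Over all genes this comparison called 22.3% in either direction and 12.5% lower. Mbp, at −0.24, did not pass.

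Under Med13l shRNA the 4 strongest calls were Erbb4, which fell by 1.26, the gliogenic factor gene Nfia, which fell by 1.05, the tetraspanin gene Tspan2, which fell by 0.75, and Smo, which rose by 1.20. Mog, Igf1, Ptprz1, Trf and Matn4, named after their values were seen, were among the other genes that were lower. The 11 further precursor genes had a median of −0.37 there, beside −0.01 over all genes, with 0 higher and 3 lower. Those 3 are 27.3% of the list, where 24.1% of all genes were called in either direction and 12.3% lower. Without 1 library, the calls of Ptprz1, Trf and Matn4 were kept in 10, 8 and 6 of 12 fits, and those of the other genes named here in all 12. The summed level of all 18 genes of that list was 414 ± 68.5 CPM (SD, n = 6) in the Med13l libraries and 538 ± 80.9 in the nontargeting ones. Over all 66 libraries the sum averaged 514 CPM, led by Ptprz1 at 213, Vcan at 123 and Sox5 at 69.9. Which cells carried these genes was not tested.

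Other calls were few. Gal3st1 and Gsn, an actin-severing protein gene, fell under Ash1l shRNA by 1.47 and 0.65 (6.16% of all genes were called), and Gsn fell by 0.73 under Dnmt3a shRNA (1.40%). Igf1, a growth factor for the lineage, fell by 1.22 under Setd5 shRNA (5.30%), and its value was −1.52 without Setd5 male 1 and −1.32 without Setd5 female 1, both of which passed (adjusted p = 5.24e-05 and 0.00274, edgeR). Tspan2 and Sox6 fell by 0.84 and 0.64 under Tbr1 shRNA (1.33%). Without 1 library, the Gsn calls were kept in 5 of 12 fits under Ash1l and 3 of 12 under Dnmt3a shRNA and that of Sox6 in 5 of 12, while those of Gal3st1, Igf1 and Tspan2 were kept in all 12. No gene of the 3 lists was called under Kdm6b, Kmt2c or Mbd5 shRNA, where 0.966%, 0.694% and 0.663% of all genes were.

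Markers of other cells that carry some of these genes are given for the same conditions. The sum of 10 astrocyte markers was 312 ± 51.7 CPM (SD, n = 6) under Chd8 shRNA and 431 ± 59.8 under nontargeting shRNA, and the sum of 8 mural cell markers, of cells that share Cspg4 with the lineage, was 24.4 ± 7.11 against 34.2 ± 8.19. Of the testable markers 2 of 10 astrocyte genes, Gfap and Slc1a2, were called lower and 0 of 6 mural genes were called. Under Med13l shRNA 4 of 8 proliferation markers (Ccnb1, Cdk1, Mki67 and Top2a) were called lower and 2 (Mcm2 and Pcna) higher, with a median of −0.80. Their sum, most of it Pcna, was 92.5 ± 20.9 CPM against 61.9 ± 14.9 under nontargeting shRNA. Of 7 testable markers of fibroblasts and leptomeningeal cells, which also carry Pdgfra, Col1a2 and Fn1 were called lower under Med13l shRNA and none higher, with a median of −0.63 and a sum of 79.7 ± 23.9 CPM against 92.2 ± 19.1. Of 8 interneuron and ventral markers, 1 was called lower under Chd8 shRNA and 2 under Med13l shRNA, with 0 higher in either. Of 8 neuron markers, 4 were called lower and 1 higher under Chd8 shRNA, and 1 lower and 1 higher under Med13l shRNA. Those comparisons called 22.3% and 24.1% of all genes. The part of any of these cells in the changes of Cnp, Pdgfra and the genes of the 3 lists was not tested.

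Replicate number gave more calls among the 6 genes than the shRNAs did, as it did over all genes. Comparisons of numbers use more libraries a side, and their fit includes the number. The SE of Cnp was 0.0752 to 0.0769 there. For shRNAs averaged over sex it was 0.218 to 0.221 without the block and 0.101 to 0.104 with it. Counts of calls therefore do not rank the sizes of the effects. In a model with number within sex, 19 of 36 tests between numbers passed (12 higher, 7 lower), against 35.9% over all genes. Male and female libraries with the same number did not deviate alike on average (r over genes −0.25, −0.26 and −0.22). Whether a number marks the same thing in both sexes is not known. Each sex is therefore described alone; a test of the male against the female differences passed for 13 of 18, beside 58.1%, 36.4% and 50.7% of all genes for numbers 2 against 1, 3 against 1 and 3 against 2. The labels do not say what a number stands for.

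**Figure D4:**
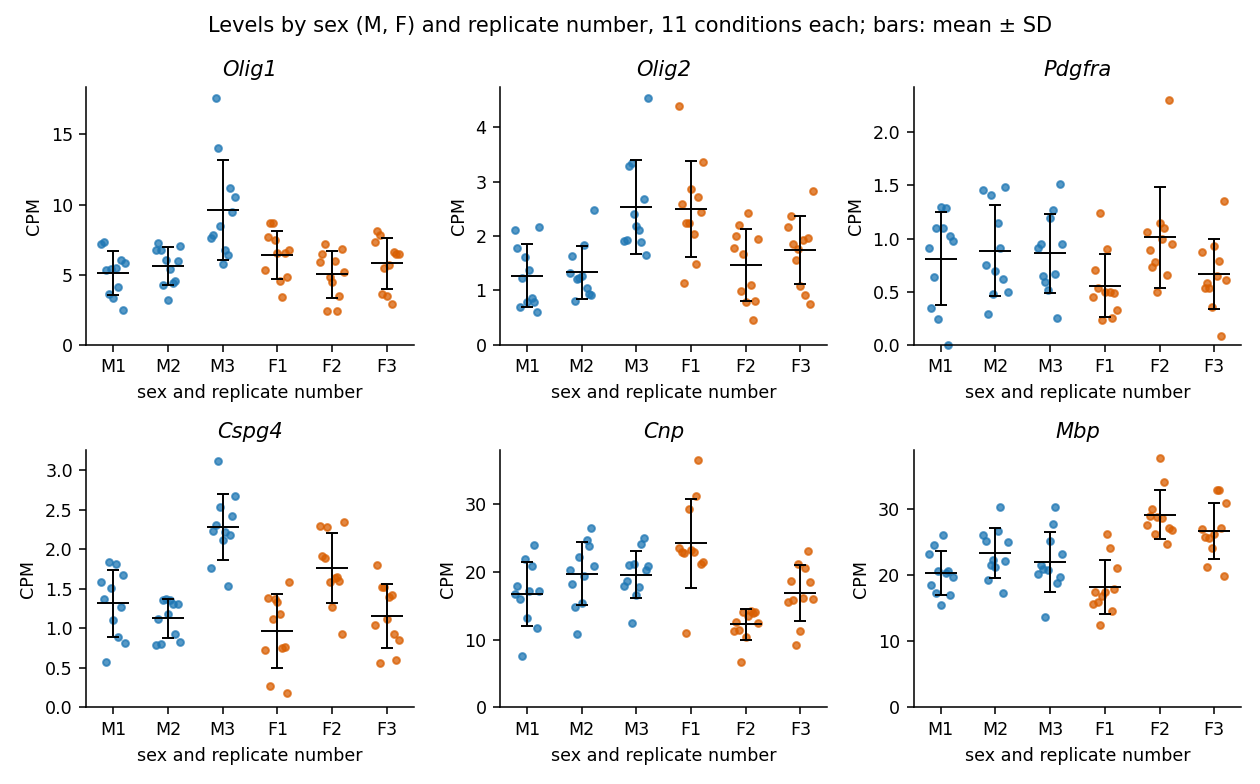
CPM of the 6 testable genes in each library (vertical axes, CPM), by sex and replicate number, 11 libraries in each set, with bars for mean and SD. In males Olig1, Olig2 and Cspg4 were highest in number 3; in females Cnp was lowest and Mbp highest in number 2.

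In males, number 3 stood out for the 2 OLIG factors and for the NG2 gene. Olig1 ranged from 5.78 to 17.6 CPM (median 8.50, n = 11) in number 3, against 2.51 to 7.35 (median 5.41) in number 1 and 3.16 to 7.23 (median 6.00) in number 2. Olig2 ranged from 1.64 to 4.53 CPM (median 2.18) in number 3, against 0.594 to 2.16 (median 1.22) and 0.807 to 2.49 (median 1.24). Cspg4 ranged from 1.54 to 3.11 CPM (median 2.22) in number 3, against 0.574 to 1.83 (median 1.37) and 0.786 to 1.37 (median 1.18). The sets overlapped for Olig1 and Olig2, and the Cspg4 ranges of numbers 2 and 3 did not.

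Against number 1, number 3 was higher by 0.90 for Olig1 (SE 0.153, adjusted p = 1.15e-05, edgeR), 1.05 for Olig2 (adjusted p = 5.13e-05) and 0.83 for Cspg4 (adjusted p = 0.000216), and Cnp by 0.25 (adjusted p = 0.00949), beside 24.4% of all genes. Against number 2 the same 3 genes were higher by 0.77, 0.96 and 1.03, beside 28.1%. Between numbers 1 and 2 none of the 6 was called by edgeR (Cnp and Mbp, 2 of 6, had an unadjusted p under 0.05, and DESeq2 called none), beside 0.378% of all genes. Pdgfra and Mbp were called in no male comparison of numbers.

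The male libraries with an shRNA against a target and the control libraries differed in the size of this gap, but not beyond the test. In the 9 shRNA libraries of each number, Olig1 averaged 4.64 ± 1.28, 5.29 ± 1.28 and 10.0 ± 3.86 CPM (SD, n = 9) in numbers 1, 2 and 3, while the mean of the nontargeting and no virus libraries (n = 2) was 7.27, 6.98 and 7.73 CPM. Olig2 averaged 1.12 ± 0.520, 1.30 ± 0.535 and 2.68 ± 0.908 CPM against 1.95, 1.48 and 1.91 CPM. In a fit that gave each set its own number difference, number 3 against 1 was 1.08 for Olig1 and 1.30 for Olig2 in the shRNA libraries (adjusted p = 1.58e-06 and 7.36e-06, edgeR, beside 22.4% of all genes), and 0.09 and −0.03 in the control libraries (adjusted p = 0.992 and 0.996, beside 0.0805%). The difference between the sets, 0.99 (SE 0.365) for Olig1 and 1.34 (SE 0.479) for Olig2, did not pass (adjusted p = 1 for both), and edgeR called 0% of all genes in that test, with 237 to 1082 genes at an unadjusted p under 0.05 over its 6 comparisons. Only 2 control libraries per number and sex enter it, and DESeq2 was not run for it.

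In females the numbers split the genes in another way. Cnp ranged from 11 to 36.6 CPM (median 23.0, n = 11) in number 1, from 6.70 to 14.2 (median 12.6) in number 2 and from 9.26 to 23.1 (median 16.1) in number 3. Mbp ran the other way, from 12.5 to 26.3 CPM (median 17.4) in number 1, from 24.7 to 37.8 (median 28.7) in number 2 and from 19.97 to 32.9 (median 26.3) in number 3. The 2 myelin genes thus took opposite places, with partly overlapping ranges.

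Number 2 against number 1 was lower by 0.96 for Cnp (adjusted p = 6.56e-16, edgeR), by 0.80 for Olig2 (adjusted p = 0.000364) and by 0.40 for Olig1 (adjusted p = 0.0219), and higher by 0.70 for Mbp (adjusted p = 1.53e-10), 0.95 for Cspg4 (adjusted p = 8.95e-06) and 0.84 for Pdgfra (adjusted p = 0.00621). All 6 genes passed, in a comparison that called 65.6% of all genes. Number 3 against number 1 passed for Cnp (−0.51), Olig2 (−0.55) and Mbp (0.57), beside 46.0% of all genes, and number 3 against number 2 for Cnp (0.45), Cspg4 (−0.66) and Pdgfra (−0.66), beside 50.9%. The Olig1 call was lost in 3 of 33 leave-outs of 1 library, and the Pdgfra call of number 3 against 2 in 7 of 33. Dnajc7 was higher by 0.16 in number 2 against 1 (adjusted p = 0.0136), in the other direction than Cnp.

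Sums of other cells' markers also differed between numbers. In males, the 10 astrocyte markers summed to 353, 351 and 485 CPM on average in numbers 1, 2 and 3, highest where Olig1 and Olig2 were highest. In females they summed to 425, 413 and 385 CPM. Slc1a2 was the highest of them, at 214 CPM over all 66 libraries. In female number 2 against 1, 8 astrocyte markers were called lower and 2, Slc1a2 and Sox9, higher. The list median there was −0.89, and 65.6% of all genes were called. In female number 3 against 2, 5 were called higher and 2 lower. In females the 8 radial glia and progenitor markers summed to 630, 178 and 320 CPM, in the order of Cnp and Olig2. Fabp7 was the highest of them, at 219 CPM over all 66 libraries, ahead of Vim at 55.1. Against number 1, 7 of the 8 were called lower in number 2 and 8 in number 3. In number 3 against 2 only Fabp7 was called higher and 2 markers lower, with a list median of 0.09. The 8 mural cell markers summed to 18.2, 42.7 and 32.9 CPM in females, in the order of Cspg4 and Mbp. In males the mural cell markers, at 33, 28.6 and 23.4 CPM, were lowest where Cspg4 was highest. Rgs5 makes up most of that sum and was called lower in number 3 against both others, while Notch3 was called higher against both and Pdgfrb against number 2, with list medians of −0.00212 against number 1 and 0.50 against number 2. The other precursor genes summed to 536, 499 and 586 CPM in males and 453, 549 and 461 in females, and the other myelin genes to 280, 262 and 239 CPM in males and 230, 330 and 259 in females. The part of any of these cells in the differences between numbers was not tested.

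**Figure D5:**
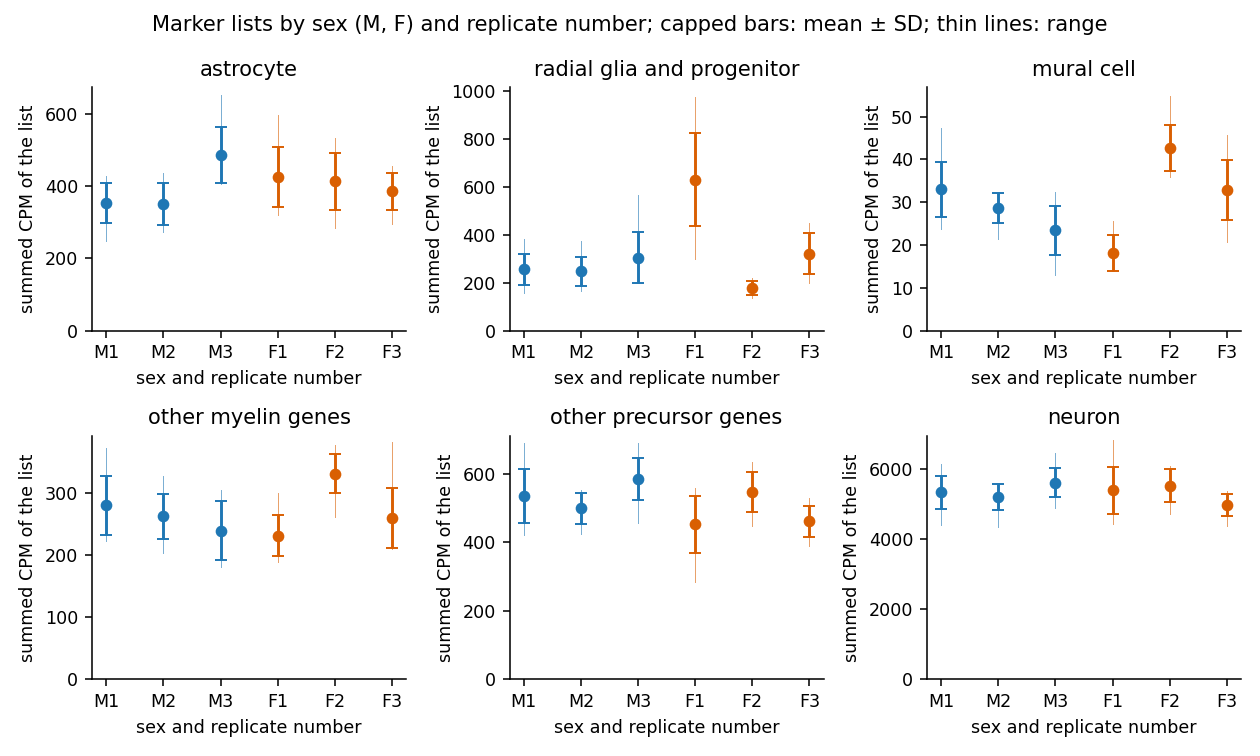
Summed CPM of 6 gene lists (vertical axes, CPM) by sex and replicate number, with the mean (point), SD (capped bars) and range (thin lines) of 11 libraries. Astrocyte markers were highest in male number 3, radial glia and progenitor markers in female number 1 and mural cell markers in female number 2.

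Across the 66 libraries, Olig1 and Olig2, neighbours on chromosome 16, varied together, with the r farthest from 0 of the 15 pairs of the 6 genes. Their log2 CPM values, centred on each sex, gave a Pearson r of 0.640 and a Spearman rho of 0.629 (permutation p = 1e-05 for each, the smallest that 100000 resamples can give, and 0.00015 after Benjamini-Hochberg adjustment over 15 pairs). Without the 2 farthest libraries r was 0.593. Within the 6 sets of libraries defined by sex and number r ranged from 0.013 to 0.680 and was positive in 6 of 6. Cnp and Pdgfra gave −0.421 (permutation p = 0.00057, adjusted 0.00427) and −0.423 without the 2 farthest libraries, but were positive within 2 of the 6 sets. Their Spearman rho was −0.473 (permutation p = 0.0001). Cnp and Mbp were positive within 6 of 6 sets while the pooled r was −0.178 (permutation p = 0.151, rho −0.223 with permutation p = 0.0713), so the pooled value does not hold within sets. Libraries of a set share whatever the number stands for, and those of a condition share the shRNA. The 66 libraries are therefore not independent, and the permutation p-values may be too small.

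The genes whose pattern over the 66 libraries was most like each member's were mostly not lineage genes. For Olig1 they were Bcan, a proteoglycan gene of precursors and astrocytes (r = 0.788), Sardh (0.701) and Nrgn (0.701), and for Olig2 Bcan (0.736), Igfbp2 (0.708) and Apoe (0.696), an astrocyte lipid carrier gene. Cnp was followed by Txndc15 (0.885), Ccdc28b (0.880) and Hdac11 (0.869), and Mbp by Dennd4b (0.808), Mthfd1l (0.795) and C77080 (0.785). Pdgfra was followed by Herpud2 (0.716), Nefh (0.703) and 1810055G02Rik (0.696), and Cspg4 by Armc5 (0.693), Pmepa1 (0.689) and Frem2 (0.684). These values are descriptions over 66 libraries that share replicate numbers and control groups.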

How the data were processed

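RNA sequencing of 66 libraries was analysed from 1 table of read counts per gene that the authors deposited for the whole series. The reads were aligned with STAR and counted with featureCounts on mm10, per the submitters' processing notes; versions, annotation and strand setting are not given in the sources used here. The kit and the polyadenylated RNA are per the labels' protocols. Columns named for a luciferase hairpin were matched to the group labelled nontargeting. Among 72 columns of libraries, 6 matched no sample and stayed out. The 18483 table entries without a symbol took 0.690% to 1.41% of the counts of a library and were dropped, and 149 repeated symbols were summed. Of the counts between 1 and 20, 26.7% were odd, against 49.1% of those of at least 1000, so counts halved and rounded were tried as an alternative.

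The fit used edgeR 4.0.16 (R 4.3.3): filterByExpr on the 22 groups, TMM scaling, and robust quasi-likelihood F tests with 1 mean per group. Adjustment was by Benjamini-Hochberg over 16145 genes in each comparison, with a threshold of 0.05. CPM is relative to TMM-scaled library sizes, and log2 CPM for correlations had a prior count of 2. Replicate numbers were compared in a model with number within sex. Pairing by number was checked by correlating, over genes, the deviations from group means of same-numbered shRNA and nontargeting libraries. All 3 correlations were over 0.1 in 8 of 9 female comparisons (not Kdm6b) and 6 of 9 male ones (not Ash1l, Kdm6b or Med13l). Alternatives were a replicate block, other size factors, no filter, DESeq2 1.42.0, separate fits and each library left out, keeping the genes and the trended dispersion. The scripts were tested on simulated data.

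The 9 genes and all lists were chosen with earlier results of these data known. The text names all 9, up to 3 genes per list by CPM and up to 4 called list genes per comparison by p, and the 3 genes most correlated with each member; others are said to be named after their values were seen. Promoter sequences are from RefSeq. Some genes of the lists are counted but not reported by name here.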

Additional observations from a re-analysis of the deposited data

Results flagged for a closer look

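The difference between replicate numbers was itself different in males and females for most of the 6 testable genes (edgeR, number within sex, added after seeing the data): 13 of 18 tests of male minus female passed. The same tests called 58.1% of all genes for number 2 against 1, 36.4% for number 3 against 1 and 50.7% for number 3 against 2. For number 2 against 1 the male minus female difference, on the log2 scale, was 1.21 for Cnp, 0.89 for Olig2, 0.53 for Olig1, −0.51 for Mbp and −1.16 for Cspg4. For number 3 against 1 it was 1.60 for Olig2, 1.09 for Olig1, 0.77 for Cnp and −0.47 for Mbp. For number 3 against 2 it was 1.69 for Cspg4, 0.70 for Olig2, 0.55 for Olig1 and −0.45 for Cnp. Whether a number marks the same thing in males and females is not known. These values therefore describe which libraries differ and cannot be read as a difference between the sexes.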

How the results depend on the processing

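Low counts limited most of these values: Pdgfra had at most 58 counts in a library, and Sox10, Nkx2-2 and Mag at most 12. With the replicate block, 6 of 108 tests of single sexes, 8 of 54 of both sexes averaged and 6 of 6 of any difference passed. Where numbers do not pair the libraries, the blocked calls were Cspg4 under Ash1l shRNA (−0.76, adjusted p = 0.0202, edgeR), Olig1 under Kdm6b shRNA (−0.80, 0.0112; −0.83, 0.0165 without Kdm6b male 1) and, under Med13l shRNA, Cnp (0.40 in the mean, 0.00123; 0.41 in males, 0.0301) and Pdgfra (−1.27, 0.00711); the block changed no other call than these and those given with the results, and the comparison of the sexes was not run with it. The block without single libraries was chosen after seeing the data. With only the libraries compared in the fit, 2 of 108 tests passed (Cnp under Chd8 and under Med13l shRNA in males) and 8 of 18 targets. For replicate numbers, 9 of 18 tests passed with 1 number shared by both sexes, and 7 of 36 in nontargeting and no virus libraries alone, where Olig2 in male number 3 against 1 was −0.0504 (adjusted p = 0.966). Leaving out 1 library gave 0 to 2 calls for single sexes, 1 to 3 for their mean, 3 to 5 for any difference, 17 to 20 for numbers, 14 to 16 for targets (17 without both male libraries that go against their labels), and 0 for the virus, sex and the interaction; the cause of these shifts was not tested. The female Cnp call under Chd8 shRNA was also lost with each sex fitted separately (adjusted p = 0.154), with only the libraries compared (0.165) and against no virus (−0.89, 0.0574). Without a filter on low counts Nkx2-2 passed the test of any difference (4 of 9 genes). The share over all genes is not given here for the fits without the filter or with 1 library left out. It is also not given for those with only the libraries compared, 1 shared number or control libraries alone. Their counts of calls are therefore no result about these genes in particular. Of the named single values, those under DESeq2, other size factors and halved counts kept direction and call.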
